A study of Homo sapiens with 9 samples.

Results

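The comparison of the Del52 form of calreticulin with its wild-type form rested on 6 of the 9 arrays of the series, 3 arrays of each form, taken by their titles. It was read across 18239 genes, each read from 1 probe set, its brightest by the mean of the 9 arrays. Each array measured total RNA of K562, a human line from a chronic myeloid leukaemia whose cells carry erythroid and megakaryocytic traits. By its title the series asked about calreticulin mutants, ER stress and oxidative stress in blood cells.

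All 3 groups were treated alike except for the transduced gene. Per the labels, cells received viral supernatant carrying wild-type CALR, Del52 CALR or Ins5 CALR in 4 rounds at intervals of 12 h, with polybrene, retronectin and 20% serum, and were kept for another 36 h. Cells that displayed NGFR, a surface receptor used as the selection marker, were then captured with magnetic beads, and over 90% of them were positive when tested 48 h later. The wild-type group is therefore itself transduced and selected, and an untransduced control was not analysed here. The labels describe no removal of the line's own CALR gene. They do not say whether the 3 replicates of a form came from separate transductions, so p-values measure only the spread between these samples, which may be technical.

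Calreticulin is a lectin chaperone of the endoplasmic reticulum (ER) that holds newly made glycoproteins until they fold, and it buffers calcium in the ER lumen. The Del52 deletion shifts the reading frame at the end of the gene, so the protein gains a new tail and loses the KDEL signal that returns it from the Golgi to the ER. When unfolded protein builds up in the ER, the sensors PERK, IRE1 and ATF6 raise ER chaperones and degradation enzymes, and PERK also slows translation and switches on the transcription factor ATF4.

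Values are log2 expression values, and a log2 difference is always Del52 minus wild type, so that positive means higher in Del52. The test was limma's moderated test over all 9 arrays, two-sided, with Benjamini-Hochberg adjustment over all 18239 genes and a threshold of 0.05. Unadjusted p-values are given to order the genes and call nothing.

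The arrays differed mainly along 1 axis that did not follow the groups. That axis, the first principal component, took up 70.5% of the variance. Wild-type replicates 2 and 3 lay at its ends, with scores of 0.57 and -0.57, and the Del52 arrays lay between them at 0.11, -0.30 and 0.27. Del52 replicate 1 had the lowest score on the second component (-0.79), which held 10.0%. Some values that rest on these 3 arrays are given below with and without them.

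The transduced gene did not separate the groups by its brighter probe set. CALR read 7.61, 7.25 and 7.40 in the Del52 arrays and 7.29, 7.67 and 7.73 in the wild-type arrays (difference -0.15 ± 0.14 SE, limma adjusted p = 0.918). A dimmer CALR probe set pointed the other way, at 4.45, 4.31 and 4.36 in Del52 and 3.90, 4.01 and 3.68 in wild type. NGFR read 3.48, 3.43 and 3.34 in Del52 and 3.34, 3.33 and 3.43 in wild type, inside the span of the antigenomic control probe sets (1.53 to 6.52). That span is wide and takes in most genes, and the mean of these controls was 2.41 in both groups. The labels were therefore taken as given, since where the CALR and NGFR probes lie on the transduced sequences is not known here.

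No gene passed the threshold in Del52 against wild type: 0 of 18239 (0%), with a smallest limma adjusted p of 0.603. An unadjusted p under 0.05 was found for 1285 genes (7.05%), of which 747 were higher (4.1%) and 538 lower (2.95%). In 1932 genes (10.6%) the 3 Del52 arrays did not overlap the 3 wild-type arrays, 1136 of them higher (6.23%) and 796 lower (4.36%). The sign was positive in 9958 genes (54.6%) and negative in 8281 (45.4%), with a median of 0.010. The differences were small: 95% of all genes lay between -0.27 and 0.20.

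**Figure D1:**
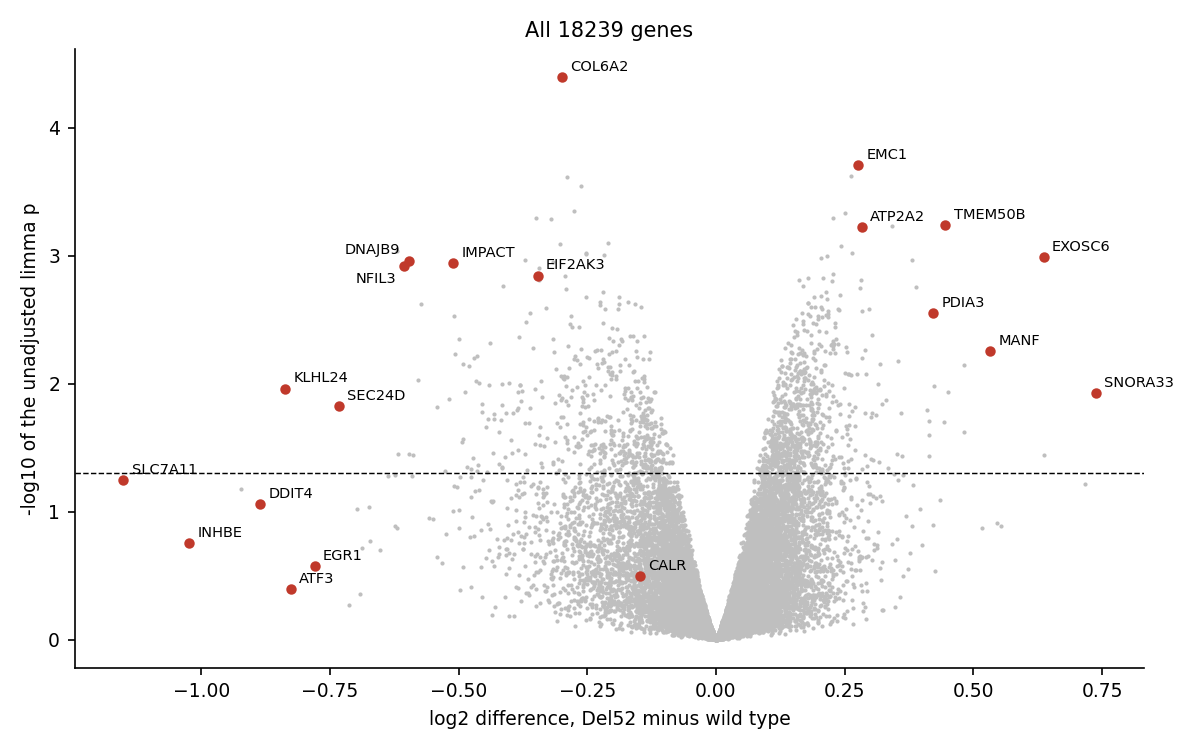
Each grey point is 1 of 18239 genes, with its log2 difference (Del52 minus wild type) on the horizontal axis and -log10 of its unadjusted limma p on the vertical axis. Red points are named genes, and the dashed line marks an unadjusted p of 0.05. SLC7A11 at -1.15, INHBE at -1.02 and DDIT4 at -0.89 sit under that line, and the smallest p belonged to COL6A2 at -0.30.

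The genes with the smallest p-values had modest differences and tight replicates. COL6A2, a collagen chain, read 4.31, 4.29 and 4.35 in Del52 and 4.63, 4.61 and 4.60 in wild type (difference -0.30 ± 0.04 SE). EMC1, the large luminal subunit of the ER membrane complex, read 6.92, 6.86 and 6.93 in Del52 and 6.64, 6.62 and 6.63 in wild type (0.28 ± 0.04). In both genes the 2 groups were well apart and the arrays of a group nearly equal. The other 8 genes with the smallest p were TMEM37, TLCD1 and RASSF8, higher by 0.23 to 0.26, and DENND10, AASDH, AFTPH, ZBTB2 and ZNF436, lower by 0.26 to 0.35. Their limma adjusted p was 0.603 like that of COL6A2 and EMC1.

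A log2 difference beyond 0.5 in size was found in 50 genes (0.274%), 42 lower in Del52 and 8 higher. The genes of this group outside the naming rule were chosen after their values were seen. SLC7A11, the cystine transporter that feeds glutathione synthesis, had the largest difference, at 5.67, 7.42 and 7.02 in Del52 against 8.71, 7.11 and 7.74 in wild type (-1.15 ± 0.51 SE). Del52 replicate 1 and wild-type replicate 1 made most of that gap, and the other arrays overlapped. INHBE, a secreted activin chain, followed at -1.02, G0S2 at -0.92, DDIT4, an inhibitor of mTOR signalling, at -0.89 and KLHL24 at -0.84. Leaving out Del52 replicate 1 gave -0.63 for SLC7A11, -0.34 for INHBE, -0.50 for G0S2, -0.42 for DDIT4 and -0.60 for KLHL24.

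Single arrays carried much of this group. Del52 replicate 1 was the lowest Del52 array in 29 of the 42 lower genes, and 14 of the 42 had groups that did not overlap. Without Del52 replicate 1 there were 22 genes lower by more than 0.5, of which 14 were among the 42. Of the 42, 9 belonged to the PERK-ATF4 list described below. On the higher side, 3 of 8 genes had groups that did not overlap: the small nucleolar RNA SNORA33, the RNA exosome subunit EXOSC6 and MANF, a factor that the ER releases under stress.

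SNORA33 read 6.07, 5.28 and 5.99 in Del52 and 4.96, 5.27 and 4.90 in wild type, a difference of 0.74 ± 0.23 SE in which Del52 replicate 2 nearly met wild-type replicate 2. EXOSC6 read 7.10, 6.92 and 7.37 in Del52 and 6.52, 6.54 and 6.43 in wild type (0.64 ± 0.13), with all Del52 arrays clearly above. Among genes above the median level with separate groups and an unadjusted p under 0.05, the 12 largest positive differences were those of SNORA33 and EXOSC6, MANF, TMEM50B and PDIA3, described below, and SDHAF1 at 0.48, an assembly factor of respiratory complex II, CD320 at 0.45, the receptor that takes up vitamin B12 bound to transcobalamin, TNFRSF8 at 0.42, PWWP3A and MTMR4 at 0.41, ANXA6 at 0.39 and CALML4 at 0.38.

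On the lower side, NFIL3, a transcription factor, read 5.50, 5.82 and 5.64 in Del52 and 6.17, 6.25 and 6.36 in wild type (-0.61 ± 0.12 SE), with a clear gap between the groups. IMPACT, which restrains the amino acid sensor GCN2, read 4.94, 5.03 and 5.20 in Del52 and 5.70, 5.65 and 5.36 in wild type (-0.51 ± 0.10). Among genes above the median level with separate groups and an unadjusted p under 0.05, the 12 largest negative differences were those of NFIL3 and IMPACT, SEC24D and DNAJB9, described below, and ETV1 (-0.62), CCDC186 (-0.60), SOCS6 (-0.58), ZNF292 (-0.57), FEM1C (-0.54), ZNF711 (-0.53), LYSMD3 (-0.51) and CHD9 (-0.49). In CCDC186 and ZNF711 wild-type replicate 1 stood above the other wild-type arrays, and the gap to Del52 was narrow.

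ER chaperones were on the higher side in Del52, and the major luminal ones were so together. Of 35 measured ER chaperones and co-chaperones, 23 were higher (65.7%, against 54.6% of all genes) and 12 lower, with a median of 0.051. With median centring 20 of 35 were higher (median 0.040), and also 20 without wild-type replicate 3 (0.028). At an unadjusted p under 0.05 there were 8 higher and 1 lower, 25.7% of the list against 7.05% of all genes. The luminal HSP70 and HSP90 chaperones were higher in 4 of 4 members, with a median of 0.19, and in 4 of 4 with any 1 array left out. None passed the threshold.

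HSPA5, the ER HSP70 known as BiP, read 10.33, 10.35 and 10.15 in Del52 and 9.85, 10.01 and 10.17 in wild type (0.26 ± 0.10 SE). Del52 replicate 3 lay just under wild-type replicate 3, and the other Del52 arrays lay above all wild-type arrays. HSP90B1, the ER HSP90 known as GRP94, read 11.23, 11.06 and 11.01 in Del52 and 10.82, 10.93 and 10.99 in wild type (0.19 ± 0.07). HYOU1, a large HSP70 that exchanges nucleotide on BiP, read 9.05, 8.99 and 8.99 in Del52 and 8.74, 8.86 and 8.84 in wild type (0.20 ± 0.05), with the groups apart. The limma adjusted p-values were 0.655 for HSPA5 and HSP90B1 and 0.603 for HYOU1.

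The other folding factors were higher in 13 of 16 members, with a median of 0.085, and MANF and TMEM50B had the largest values of this role. MANF read 8.34, 7.99 and 7.92 in Del52 and 7.28, 7.62 and 7.74 in wild type, 0.53 ± 0.14 SE or 1.45-fold. TMEM50B, a membrane protein of the ER and Golgi, read 7.97, 7.71 and 7.82 in Del52 and 7.32, 7.50 and 7.34 in wild type (0.45 ± 0.08). In both genes every Del52 array lay above every wild-type array, but the gap between the groups was smaller than the range of the Del52 arrays.

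DNAJB11, a J-domain co-chaperone of BiP, read 8.85, 8.55 and 8.76 in Del52 and 8.16, 8.60 and 8.07 in wild type (0.44 ± 0.15 SE). CRELD2 read 7.78, 7.49 and 7.65 in Del52 and 7.25, 7.50 and 7.20 in wild type (0.32 ± 0.10). In both genes wild-type replicate 2 overlapped the lowest Del52 array and the other wild-type arrays lay below. The J-domain co-chaperones as a role went the other way, lower in 5 of 6 members with a median of -0.12 (3 of 6 without wild-type replicate 3). DNAJB9, which turns BiP against the sensor IRE1, had the largest negative value, at 6.80, 6.65 and 6.58 in Del52 and 7.09, 7.48 and 7.25 in wild type (-0.60 ± 0.12).

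The lectin chaperones, to which calreticulin itself belongs, were split. CANX, the membrane-bound partner calnexin, read 10.66, 10.58 and 10.49 in Del52 and 10.48, 10.52 and 10.63 in wild type (0.034 ± 0.057 SE, and -0.007 without Del52 replicate 1). The role had 3 members higher and 2 lower, with a median of 0.008 (-0.003 with median centring and -0.007 without Del52 replicate 1). The number of chaperones higher at an unadjusted p under 0.05 was 3 without Del52 replicate 1 and 4 without wild-type replicate 1, in place of 8. Of all genes, 4.98% and 5.32% reached such a p in either direction in these 2 fits.

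The promoters of these chaperones were searched for the ER stress element, the letters CCAAT and CCACG with 9 bases between them, on both strands. Promoter windows of 300 bases, 250 before to 50 after the start, were taken from RefSeq (GRCh38.p14) for 14492 of the 18239 genes, using the first window listed for a gene. The element was found in 16 of these windows (0.11%), and 5 of the 16 belonged to the 30 chaperones with a window (16.7%). The 5 are shown because they hold the element through which ATF6 is known to act, with the element in capitals and each sequence on the strand of its gene.
HSPA5 (chr9:125241379-125241421): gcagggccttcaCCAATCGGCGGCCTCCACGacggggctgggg
HSP90B1 (chr12:103930204-103930246): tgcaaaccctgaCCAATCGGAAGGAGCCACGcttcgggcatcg
HSP90B1, second match (chr12:103930309-103930351): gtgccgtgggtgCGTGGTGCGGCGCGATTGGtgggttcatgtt
CRELD2 (chr22:49918542-49918584): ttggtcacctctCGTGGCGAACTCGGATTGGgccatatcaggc
CANX (chr5:179698766-179698808): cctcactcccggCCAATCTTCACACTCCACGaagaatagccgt
CALR (chr19:12938372-12938414): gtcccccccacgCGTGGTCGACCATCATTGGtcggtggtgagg

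All of these matches lie upstream of the start, HSPA5 and CANX on the strand of the gene and CRELD2 and CALR on the other strand. The values of their genes were 0.26 for HSPA5, 0.19 for HSP90B1, 0.32 for CRELD2, 0.034 for CANX and -0.15 for CALR, where the CALR array signal may include the transduced gene, so its own promoter cannot be told apart. The 25 chaperones without the element in the window had a median of 0.060. A match describes letters only, and over all 16 genes with the element the median was -0.008.

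Among the disulfide isomerases and oxidases, enzymes that form and shuffle disulfide bonds in the ER, 11 of 21 members were higher and 10 lower, with a median of 0.003 (-0.008 without wild-type replicate 3, and below 0 with quantile normalization, median centring and the mean of all probe sets). PDIA3, the isomerase that calreticulin and calnexin recruit to glycoproteins, read 9.26, 9.13 and 9.11 in Del52 and 8.58, 8.73 and 8.93 in wild type (0.42 ± 0.10 SE, 1.34-fold, limma adjusted p = 0.603). PDIA6, which also acts on the sensor IRE1, read 9.72, 9.60 and 9.68 in Del52 and 9.37, 9.55 and 9.41 in wild type (0.22 ± 0.06). In both genes every Del52 array lay above every wild-type array.

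**Figure D2:**
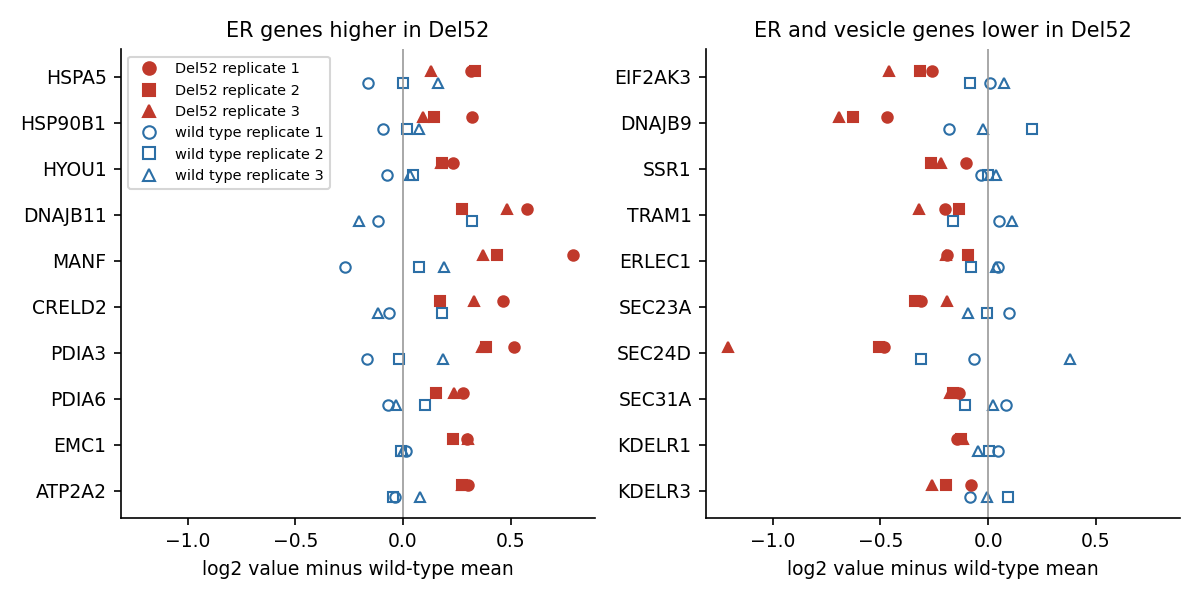
Each row is 1 gene, with the log2 value of each array minus the wild-type mean on the horizontal axis; filled red symbols are Del52 arrays, open blue symbols wild-type arrays, and the shape gives the replicate. The genes were picked for display after their values were seen. HYOU1, MANF, PDIA3, PDIA6, EMC1 and ATP2A2 have all Del52 arrays on the right of all wild-type arrays, and DNAJB9, EIF2AK3, SEC23A and SEC24D have them on the left.

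Proteins enter the ER through the translocon or the ER membrane complex, and these had opposite signs. The list of translocation and membrane insertion had 19 of 47 members higher and 28 lower, with a median of -0.034 (0.002 without Del52 replicate 3). The ER membrane complex, which inserts tail-anchored and some multipass membrane proteins, was higher in 9 of 10 subunits, with a median of 0.11. Next to EMC1, its subunit EMC8 read 7.96, 7.81 and 7.92 in Del52 and 7.74, 7.78 and 7.74 in wild type (0.15 ± 0.05 SE). Without wild-type replicate 2, 6 of 10 subunits were higher, with a median of 0.12.

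The translocon and its partners were lower. Translocon genes were lower in 7 of 8 members (median -0.090) and the translocon-associated complex in 4 of 4 (median -0.17, and -0.074 without wild-type replicate 3). SSR1, a subunit of that complex, read 9.67, 9.50 and 9.55 in Del52 and 9.73, 9.77 and 9.80 in wild type (-0.19 ± 0.06 SE). TRAM1, a membrane protein beside the translocon, read 8.60, 8.66 and 8.48 in Del52 and 8.85, 8.64 and 8.91 in wild type (-0.22 ± 0.08), with wild-type replicate 2 inside the Del52 range. TMEM258, a subunit of the oligosaccharyltransferase that attaches N-glycans, was at -0.14.

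Genes of traffic between ER and Golgi were lower in Del52 as a list. Of 37 measured members, 29 were lower and 8 higher, with a median of -0.086. The mean over the list, relative to the wild-type mean, was -0.069, -0.080 and -0.11 in the Del52 arrays and 0.002, -0.042 and 0.040 in the wild-type arrays, so these list means did not overlap. The gap was narrow, 28 lists were examined, and groups that did not overlap were found in 10.6% of all single genes. The median stayed between -0.119 and -0.058 with any 1 array left out. At an unadjusted p under 0.05 there were 5 lower and 0 higher (13.5%, against 7.05% of all genes), and 11 lower without wild-type replicate 2 but 3 without Del52 replicate 2, Del52 replicate 3, wild-type replicate 1 or wild-type replicate 3. Of all genes, 9.17% reached such a p in either direction without wild-type replicate 2, and 5.32% to 7.33% in those other fits.

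The coat that carries cargo out of the ER, COPII, had 10 of 13 members lower (median -0.11). SEC24D, a cargo-selecting subunit, read 4.52, 4.49 and 3.79 in Del52 and 4.93, 4.69 and 5.38 in wild type, -0.73 ± 0.24 SE, with replicate 3 of each group farthest out. SEC23A, its partner in the inner coat, read 6.78, 6.75 and 6.90 in Del52 and 7.19, 7.09 and 6.996 in wild type (-0.28 ± 0.07), and SEC31A of the outer coat was at -0.16. These 3 genes had separate groups.

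The return path, on which KDEL receptors and the COPI coat bring escaped ER proteins back, had all 10 measured members lower (median -0.13), 9 of 10 with the mean of all probe sets or without Del52 replicate 1, and 8 of 10 without Del52 replicate 2 or without wild-type replicate 2. KDELR1, the main receptor of the KDEL signal, read 7.95, 7.97 and 7.98 in Del52 and 8.14, 8.09 and 8.04 in wild type (-0.13 ± 0.04 SE). The Del52 arrays were nearly equal and just below the wild-type arrays. KDELR3 read 6.52, 6.41 and 6.34 in Del52 and 6.52, 6.69 and 6.60 in wild type (-0.18 ± 0.07), with replicate 1 of both groups level.

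The sensors and transcription factors of the unfolded protein response were mixed, with 6 of 13 members higher and 7 lower and a median of -0.010 (0.038 without Del52 replicate 1, 0.012 with quantile normalization). At an unadjusted p under 0.05 there were 2 higher and 2 lower (30.8%, against 7.05% of all genes), but 0 higher without Del52 replicate 1, wild-type replicate 1 or wild-type replicate 3. EIF2AK3, which encodes the sensor kinase PERK, read 5.80, 5.74 and 5.60 in Del52 and 6.07, 5.98 and 6.13 in wild type (-0.35 ± 0.07 SE, -0.39 to -0.29 with any 1 array left out, limma adjusted p = 0.603). ERN1, which encodes IRE1, was at 0.12 and its relative ERN2 at 0.17, with separate groups but dim signals of 2.76 to 4.19. ATF6 was at 0.080 (-0.039 without wild-type replicate 3). XBP1, the transcription factor that IRE1 activates by splicing, read 8.31, 8.86 and 8.32 in Del52 and 8.50, 7.96 and 9.08 in wild type (-0.016 ± 0.30), and these arrays cannot be read for its spliced form here.

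CREB3L4, a transcription factor of the ATF6 kind, was lower with separate groups (-0.22). ER-associated degradation, the removal of misfolded proteins from the ER, had 13 members higher and 17 lower, with a median of -0.011 (0.013 without Del52 replicate 3, 0.022 without wild-type replicate 3, and also above 0 with quantile normalization and the mean of all probe sets). ERLEC1, a lectin that delivers glycoproteins to this machinery, read 7.91, 8.01 and 7.90 in Del52 and 8.15, 8.02 and 8.14 in wild type (-0.16 ± 0.05 SE). Del52 replicate 2 and wild-type replicate 2 were nearly level.

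ER calcium genes had 12 members higher and 14 lower (median -0.023). ATP2A2, which encodes the pump SERCA2 that fills the ER with calcium, read 9.79, 9.76 and 9.76 in Del52 and 9.45, 9.44 and 9.56 in wild type (0.28 ± 0.05 SE, 1.22-fold, limma adjusted p = 0.603). Every Del52 array exceeded every wild-type array. SDF4, a calcium-binding protein of the Golgi lumen, was at 0.12, also with separate groups.

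The PERK-ATF4 pathway, which supplies amino acids and tRNA charging under stress, was lower in nearly all members but very unevenly between arrays. Of 61 measured genes 57 were lower and 4 higher, with a median of -0.17. The list mean relative to the wild-type mean was -0.56, 0.041 and -0.24 in the Del52 arrays and 0.12, -0.31 and 0.19 in the wild-type arrays. Del52 replicate 2 lay above wild-type replicate 2, so the groups overlapped. Without Del52 replicate 1 the median was -0.040 with 42 lower, without wild-type replicate 3 it was -0.13 with 42 lower, and without wild-type replicate 2 it was -0.34 with 55 lower. At an unadjusted p under 0.05 there were 4 lower and 0 higher (6.56%, near the 7.05% of all genes), 9 lower without Del52 replicate 2 and 11 without wild-type replicate 2. Of all genes, 5.92% reached such a p in either direction without Del52 replicate 2 and 9.17% without wild-type replicate 2.

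**Figure D3:**
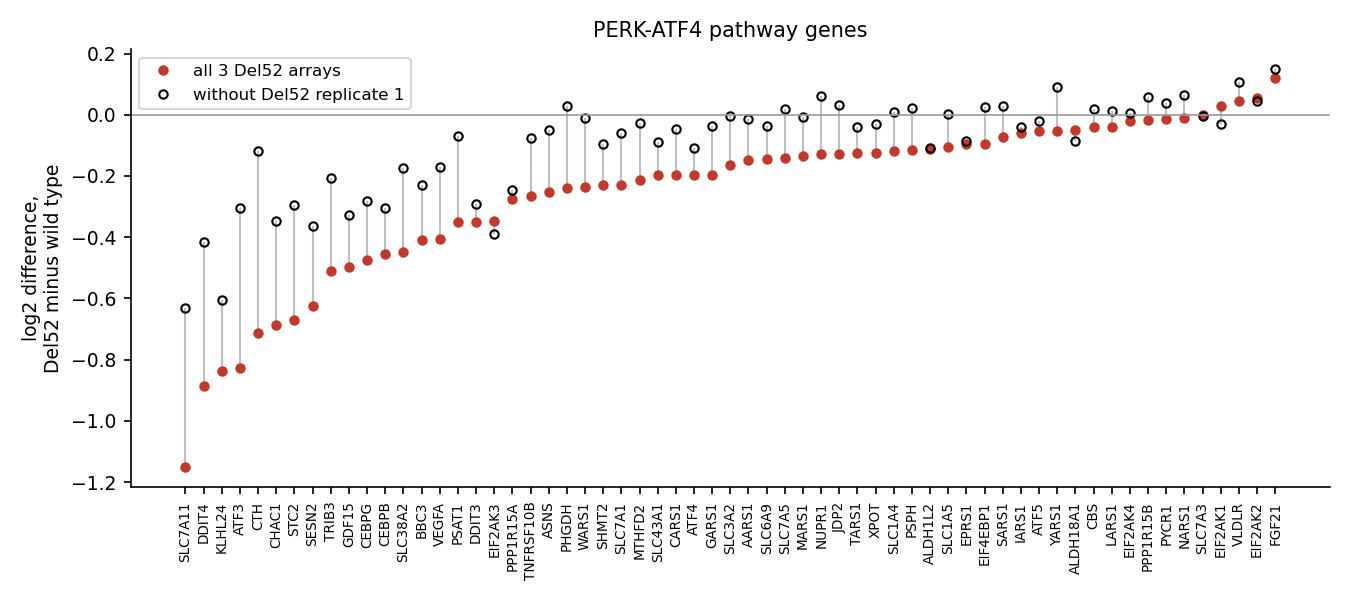
Each column is 1 of the 61 PERK-ATF4 genes, ordered by its log2 difference (Del52 minus wild type, vertical axis). Red points use all arrays, and open points leave out Del52 replicate 1. Most open points lie nearer 0 than the red ones, and 42 of 61 stay below 0.

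By role, genes of amino acid synthesis were lower in 11 of 11 members (median -0.21), transporters in 10 of 10 (-0.16), tRNA charging enzymes in 13 of 13 (-0.12) and transcription factors with their feedback in 9 of 9 (-0.35). ATF4 read 10.23, 10.48 and 10.50 in Del52 and 10.68, 10.64 and 10.48 in wild type (-0.20 ± 0.09 SE). DDIT3, the stress factor CHOP, read 6.08, 6.37 and 6.15 in Del52 and 6.61, 6.72 and 6.32 in wild type (-0.35 ± 0.17). In both genes wild-type replicate 3 overlapped the Del52 range.

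CEBPB, a partner of ATF4, read 7.85, 8.37 and 8.24 in Del52 and 8.66, 8.53 and 8.63 in wild type (-0.46 ± 0.15 SE), and TRIB3, a feedback inhibitor of ATF4, was at -0.51. Both had separate groups, but CEBPB was at -0.30 and TRIB3 at -0.21 without Del52 replicate 1. ASNS, the asparagine synthetase, read 10.13, 10.87 and 10.61 in Del52 and 10.89, 10.44 and 11.04 in wild type (-0.25 ± 0.24), and CHAC1, which degrades glutathione, 5.79, 7.16 and 6.47 against 7.39, 6.30 and 7.78 (-0.69 ± 0.48). In both genes wild-type replicates 1 and 3 lay above all Del52 arrays and wild-type replicate 2 lay inside the Del52 range. ASNS was at -0.051 and CHAC1 at -0.35 without Del52 replicate 1. BBC3, the death gene PUMA, was at -0.41 and KLHL24 at -0.84, both at an unadjusted limma p under 0.05. Without Del52 replicate 1 the medians were -0.051 for synthesis, -0.022 for transport, -0.013 for tRNA charging and -0.21 for transcription factors. Without wild-type replicate 3 they were -0.015, -0.054, -0.13 and -0.39.

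Promoters were searched for the ATF4 composite element, TGATG and AA with 1 base between them, on both strands. It was found in 370 of 14492 windows (2.55%) and in 13 of the 48 PERK-ATF4 members with a window (27.1%), of which 12 were lower in Del52. The 35 members without the element had a median of -0.21 and the 13 with it -0.15. The 6 members whose match begins more than 50 bases upstream of the start are shown, with the element in capitals, on the strand of the gene.
ASNS (chr7:97872457-97872488): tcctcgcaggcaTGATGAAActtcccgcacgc
ATF3 (chr1:212565204-212565235): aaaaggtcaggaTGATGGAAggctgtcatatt
CHAC1 (chr15:40953250-40953281): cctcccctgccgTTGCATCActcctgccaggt
AARS1 (chr16:70289674-70289705): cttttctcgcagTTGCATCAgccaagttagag
PPP1R15B (chr1:204412025-204412056): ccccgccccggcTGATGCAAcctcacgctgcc
FGF21 (chr19:48755458-48755489): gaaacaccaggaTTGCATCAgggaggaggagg

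The values of these genes were -0.25 for ASNS, -0.83 for ATF3, -0.69 for CHAC1, -0.15 for AARS1, the alanyl-tRNA synthetase, -0.018 for PPP1R15B, a subunit of the eIF2alpha phosphatase, and 0.12 for the hormone FGF21. ATF3, itself a stress-induced transcription factor, read 5.72, 8.13 and 6.45 in Del52 and 8.08, 5.74 and 8.96 in wild type. Wild-type replicate 3 lay above all other arrays, and the rest of the arrays overlapped. ATF3 was at -0.30 without Del52 replicate 1. CHAC1, AARS1 and FGF21 carry the element in reverse, which reads TTGCATCA on the strand printed. No window held overlapping matches of different motifs among the 3 searched.

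**Figure D4:**
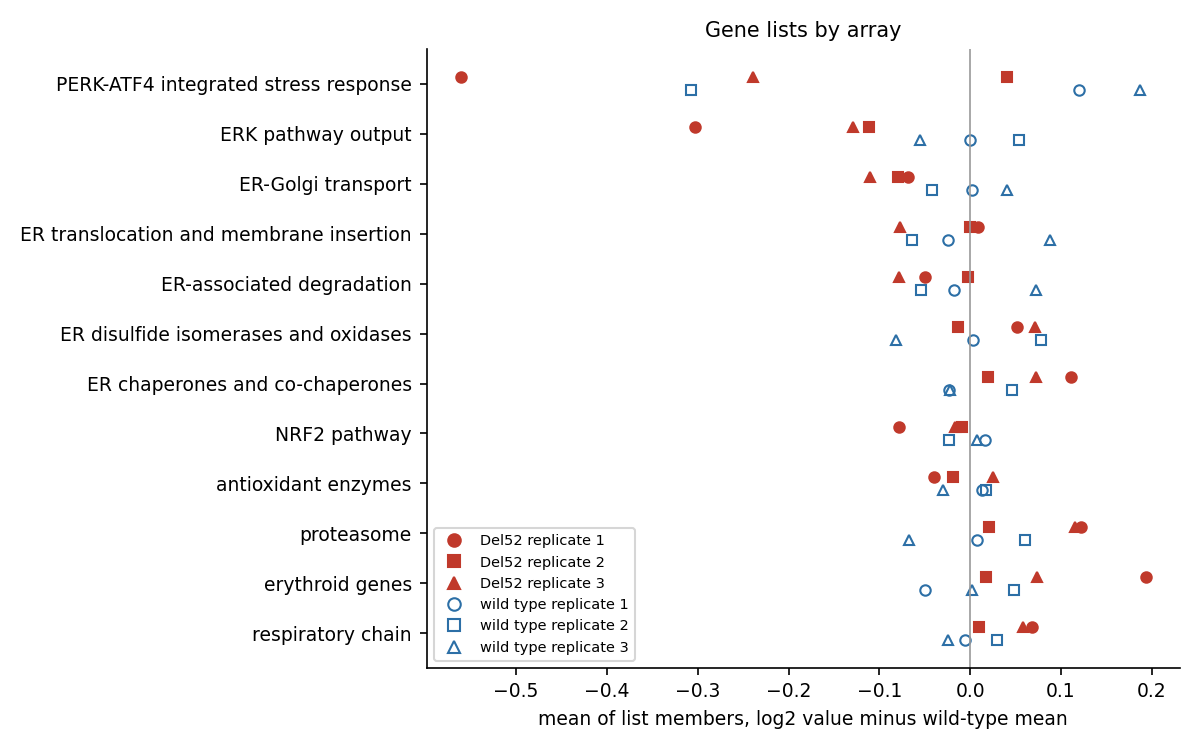
Each row is 1 gene list, with the mean over its members of the log2 value minus the wild-type mean, per array, on the horizontal axis; filled red symbols are Del52 arrays, open blue symbols wild-type arrays, and the shape gives the replicate. The PERK-ATF4 list runs from -0.56 to 0.041 in Del52. In the ER-Golgi list the groups do not overlap, as was also the case in 10.6% of all single genes.

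Genes of the response to oxidative stress had differences in both directions. The NRF2 pathway had 23 of 38 members higher and 15 lower, with a median of 0.032, and antioxidant enzymes 31 of 45 higher and 14 lower, with a median of 0.038. NFE2L2, which encodes NRF2, the transcription factor of the antioxidant response, read 8.65, 8.90 and 8.87 in Del52 and 9.21, 9.01 and 9.05 in wild type (-0.29 ± 0.08 SE, limma adjusted p = 0.603). BACH1, a repressor that competes with NRF2, read 7.23, 7.48 and 7.21 in Del52 and 7.88, 7.36 and 7.79 in wild type (-0.37 ± 0.15). NFE2L2 had separate groups, and BACH1 overlapped through wild-type replicate 2. KEAP1, which marks NRF2 for degradation, was at 0.19.

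SLC7A11, described above at -1.15, is a member of the NRF2 list as well as of the PERK-ATF4 list. Of the other standard targets of NRF2, 4 did not separate the groups. NQO1, the quinone reductase, read 7.85, 7.61 and 8.23 in Del52 and 7.83, 8.40 and 7.27 in wild type (0.064 ± 0.29 SE, but -0.22 without wild-type replicate 3). HMOX1, the heme oxygenase, was at 0.093, GCLM of glutathione synthesis at 0.051 (-0.032 without wild-type replicate 2) and the thioredoxin reductase TXNRD1 at -0.009 (0.073 without that array). Among members with separate groups, PRDX1, a peroxiredoxin that removes peroxide, was at 0.11, the heme transporter SLC48A1 at 0.12 and the drug exporter ABCC2 at 0.17.

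TXNIP, which binds and inhibits thioredoxin, had the largest difference at an unadjusted p under 0.05 among the antioxidant genes. It read 9.76, 10.28 and 10.04 in Del52 and 10.62, 10.39 and 10.46 in wild type (-0.47 ± 0.14 SE), with all Del52 arrays below. MSRB1, a selenoprotein that repairs oxidised methionine, read 6.99, 6.80 and 6.88 in Del52 and 6.68, 6.70 and 6.58 in wild type (0.24 ± 0.08). OXR1, a TLDc-domain protein that protects cells from oxidative damage, read 6.77, 7.05 and 7.05 in Del52 and 7.48, 7.13 and 7.07 in wild type (-0.27 ± 0.12), where Del52 replicate 3 and wild-type replicate 3 were almost level.

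Among dismutases, catalase and glutathione peroxidases, the genes of the fixed list were below 0.1 in size. SOD1 was at 0.029 (-0.16 without wild-type replicate 3), SOD2 at 0.071, the catalase CAT at -0.002 (0.12 without wild-type replicate 2) and the peroxidase GPX1 at 0.076. The antioxidant element, TGAC and GC with 3 bases between them on either strand, had a match in 14.4% of all windows, in 6 of 31 NRF2 members (19.4%) and in 14 of 39 proteasome members (35.9%). Median differences with and without the element were 0.015 and 0.027 for NRF2 members. For proteasome members they were 0.094 and 0.103, so members with the element were not the higher ones.

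The proteasome, which degrades ubiquitinated proteins including those extracted from the ER, was slightly higher across its parts. Of 45 measured members 42 were higher, with a median of 0.088, among them all 7 alpha and all 7 beta subunits of the core and all 5 ATPases and all 11 other subunits of the cap. The number of higher members was 29 without wild-type replicate 3 and 35 without wild-type replicate 2, and the median ran from 0.055 to 0.13 with any 1 array left out. PSMB4, a core subunit, read 9.40, 9.40 and 9.43 in Del52 and 9.30, 9.30 and 9.26 in wild type (0.13 ± 0.03 SE). ADRM1, a ubiquitin receptor of the cap, was at 0.18 and PSMD11 at 0.14. Of the list, 3 members reached an unadjusted p under 0.05 (6.67%, near the 7.05% of all genes).

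Lists of protein and energy supply also had medians above 0, several of which were near or below 0 without wild-type replicate 3. Respiratory chain subunits were higher in 64 of 72 members (median 0.042, 47 without wild-type replicate 3). At an unadjusted p under 0.05 there were 1 higher and 1 lower (2.78%, against 7.05% of all genes). These were UQCR11 of complex III at 0.13 and NDUFA13 of complex I at -0.147, where a dimmer NDUFA13 probe set was at 0.185. Cytosolic heat shock genes were higher in 25 of 32 (median 0.099, but 0.009 without wild-type replicate 3), genes of cholesterol synthesis in 20 of 22 (0.087, but -0.004 without it) and ribosome biogenesis genes in 21 of 28 (0.056, but -0.018 without it). At such a p the heat shock list had 0 higher and 1 lower, DNAJB4 (3.12%), and the cholesterol list had 0 members. The ribosome biogenesis and MYC list had 1 higher and 1 lower, MXD1 at -0.155 (7.14%). NOP56, a core protein of box C/D small nucleolar particles, read 9.99, 9.78 and 9.91 in Del52 and 9.66, 9.66 and 9.59 in wild type (0.26 ± 0.07 SE), with separate groups. HK2, the hexokinase at the entry of glycolysis, was at 0.30 with separate groups, and glycolysis genes were higher in 15 of 17 (9 of 17 without wild-type replicate 3). Genes induced by hypoxia were lower in 12 of 12, but in 7 of 12 without wild-type replicate 2.

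Genes of cytokine signalling were split. Calreticulin mutants are known to activate the thrombopoietin receptor and through it JAK2 and STAT5. The cytokine and JAK-STAT list had 12 of 29 members higher and 17 lower, with a median of -0.026 (0.009 without Del52 replicate 1 and 0.006 without wild-type replicate 1). CISH, a feedback inhibitor induced by STAT5, read 7.10, 7.29 and 7.27 in Del52 and 7.44, 7.55 and 7.38 in wild type (-0.24 ± 0.09 SE), and SOCS2 was at -0.34, both with separate groups. ID1, a target of cytokine and BMP signals, was higher (0.15) with separate groups, and PIM1 was at -0.32 with overlapping groups. JAK2, STAT5A and STAT5B were at -0.037, 0.14 and 0.015, and each takes the opposite sign when some single array is left out.

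ERK output genes were lower in 24 of 31 (median -0.16), but without wild-type replicate 2 the median was 0.003 with 14 lower. Without wild-type replicates 2 and 3 together the median was -0.148 with 19 lower. With the first principal component as covariate it was -0.188 with 25 lower. EGR1, an immediate early gene, read 7.57, 7.04 and 7.65 in Del52 and 7.98, 9.53 and 7.09 in wild type (-0.78 ± 0.65 SE), and wild-type replicate 2 made the difference. EPHA4, a receptor tyrosine kinase on the same list, was at 0.12 with separate groups and a dim signal of 3.21 to 3.50.

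Erythroid genes were higher in 36 of 44 members (median 0.095, 0.035 without Del52 replicate 1). At an unadjusted p under 0.05 there were 2 members (4.55%, against 7.05% of all genes). Without wild-type replicate 2, 27 were higher and 7 reached such a p, where 9.17% of all genes did. ANK1, which anchors the red cell membrane skeleton, read 7.52, 7.21 and 7.25 in Del52 and 7.04, 7.14 and 7.07 in wild type (0.24 ± 0.10 SE). BCL11A, a repressor of fetal globin, was at 0.22, KLF1, an erythroid transcription factor, at 0.21 and HBZ, an embryonic globin, at 0.14. The fetal globin HBG1 was at 0.017 (-0.051 without wild-type replicate 2) and GATA1 at 0.11 (-0.017 without wild-type replicate 3). Megakaryocyte and platelet genes had 18 of 30 higher, with a median of 0.009 (-0.001 with median centring, -0.003 without wild-type replicate 1), and both the platelet lipoxygenase ALOX12 (0.23) and VWF (0.20) were dim, at 2.76 to 4.44.

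Of the remaining lists, MHC class I and peptide loading had 14 of 19 members higher (median 0.072), with HLA-B at 0.13 and PDIA3 counted here too as a part of the loading complex. Apoptosis regulators were split, 11 higher and 10 lower. BAX, the pore-forming death protein, read 5.78, 5.88 and 5.75 in Del52 and 5.70, 5.46 and 5.60 in wild type (0.21 ± 0.07 SE), CASP9 was at 0.15 and BMF at 0.20, while the survival gene MCL1 was at -0.11. All 4 had separate groups, but a second probe set of BMF was at -0.22 and one of HLA-B at -0.13.

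Cell cycle genes were higher in 29 of 48 (median 0.036, but -0.009 without Del52 replicate 2 and -0.075 without wild-type replicate 2), with the replication genes GINS1 at 0.21 and MCM3 at 0.13. At an unadjusted p under 0.05 there were 2 higher and 1 lower (6.25%, against 7.05% of all genes). The lower member was CDKN2D, at -0.20 to -0.10 with any 1 array left out. DNA repair genes were higher in 30 of 66 (median -0.003, 0.001 without wild-type replicate 2), with H2AX at 0.20 and the nuclease ERCC5 at -0.26. Interferon-induced genes were higher in 16 of 32 (median 0.001, -0.012 without wild-type replicate 3, and also below 0 with quantile normalization or median centring), with ISG15 at 0.18 and OAS2, SAMD9L and RIGI at -0.12, -0.11 and -0.14.

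**Figure D5:**
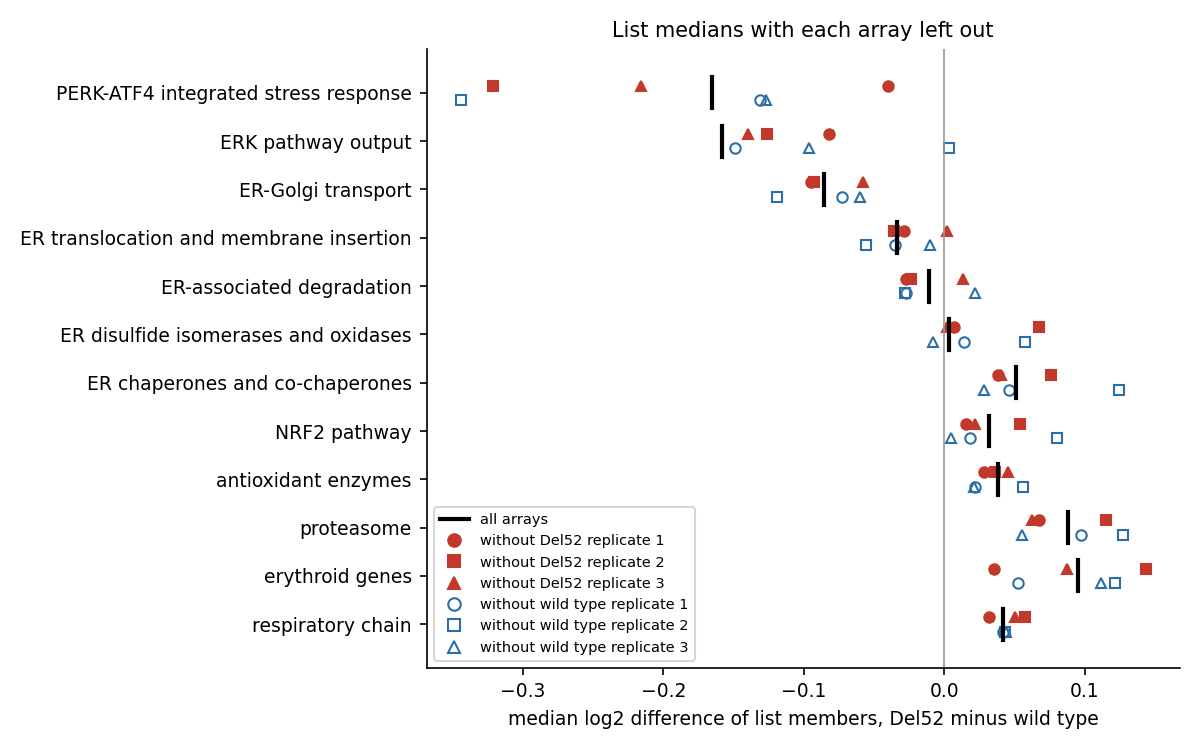
Each row is 1 gene list, with the median log2 difference of its members (Del52 minus wild type) on the horizontal axis. The black bar uses all arrays, red symbols leave out 1 Del52 array and open blue symbols leave out 1 wild-type array. The PERK-ATF4, ER-Golgi, ER chaperone, NRF2, antioxidant, proteasome, erythroid and respiratory chain medians stay on 1 side of 0. The ERK output median reaches 0.003 without wild-type replicate 2, and the ER translocation, degradation and disulfide medians cross 0 as well.

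Markers of the line and of other cells were level between the groups. The 9 measured K562 identity markers, led by HBG1, had array means of 9.18 to 9.32 in Del52 and 9.08 to 9.32 in wild type. Markers of granulocytes and monocytes (20 genes) ran from 3.10 to 3.11 in Del52 and from 3.09 to 3.11 in wild type, lymphoid markers (18 genes) from 3.76 to 3.78 and from 3.73 to 3.82, and those of fibroblasts and epithelia (22 genes) from 4.16 to 4.23 and from 4.19 to 4.27. Only CTSG (0.17), CD8A (0.23) and COL6A2 (-0.30) among these 60 had an unadjusted p under 0.05, all with levels inside the span of the antigenomic controls. The brightest of the other markers were LYZ at a mean of 9.65 and KRT18 at 9.14. In RNA from whole cultures, fewer cells of a kind and less RNA per cell cannot be told apart.

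Whether a value was particular to Del52 was tested by setting it against Ins5, the other mutant. No gene passed: 0 of 18239 (0%), with a smallest limma adjusted p of 0.841, and 1052 at an unadjusted p under 0.05 (5.77%). Means in Del52, Ins5 and wild type were 9.17, 9.03 and 8.75 for PDIA3, 8.08, 7.90 and 7.55 for MANF, and 10.27, 10.14 and 10.01 for HSPA5. ATP2A2 stood at 9.77, 9.74 and 9.48, and SEC23A at 6.81, 6.74 and 7.09. Both comparisons with wild type share the same 3 wild-type arrays. Differences between the mutants were larger for EMC1 (6.90, 6.69 and 6.63; Del52 minus Ins5 0.22), TXNIP (10.02, 10.45 and 10.49; -0.42) and SNORA33 (5.78, 5.02 and 5.04; 0.75), each with a limma adjusted p of 0.841.

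With the first principal component as a covariate, which was an alternative to the fit used above, 4 genes passed the threshold (0.0219%). HDC, the histidine decarboxylase, read 3.95, 4.07 and 3.89 in Del52 and 3.52, 3.22 and 3.72 in wild type (0.50 ± 0.04 SE in that fit, limma adjusted p = 0.0158). IGFALS was also higher (0.33), and TIGD2 (-0.46) and FANCF (-0.39), a core protein of the Fanconi anaemia pathway, were lower. FANCF read 5.86, 5.43 and 5.96 in Del52 and 6.03, 6.71 and 5.55 in wild type, so its raw groups overlapped and its call rests on the covariate. In that fit 565 genes had an adjusted p under 0.1 (3.1%).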

How the data were processed

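RNA of 9 K562 samples, 3 per CALR form, was hybridised to Affymetrix arrays. The authors deposited log2 values of 49386 probe sets made with RMA in Partek, per the submitters' processing notes; which version and options were used is not given here, and RMA's normalization across arrays removes overall shifts between them. The deposited log2 table was used as it stands. Probe sets with exactly 1 symbol in the platform annotation were kept (45253; 1327 had several and 2713 none), and the one with the highest mean over 9 arrays stood for its gene, giving 18239 genes, 11822 of them with more than 1 probe set. The number of arrays limits the precision.

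All 9 arrays entered a limma 3.58.1 fit in R 4.3.3 with a mean per group (6 residual and 1.784 prior degrees of freedom). With 3 arrays against 3, an exact two-sided permutation test of a single value cannot go below 0.1. On simulated data for the comparison of Del52 with wild type over 18239 genes, the fit called 39 of 67 genes changed by 0.5, 57 of 67 changed by 1 and 65 of 66 changed by 2. The simulation kept the main axis of spread within groups, drew the other noise independently for each gene and changed randomly picked genes. It held no shift of an array shared by many genes beyond that axis. These shares therefore check the fit and do not give the power of the real comparison. Named genes were those of a fixed list, the 10 with the smallest p, the 12 largest differences in each direction among genes above the median level with separate groups and an unadjusted p under 0.05, and up to 6 members per list at such a p (or else the member with the smallest p); others are marked as chosen after their values were seen. The members and lists were chosen with earlier results of these data known. Same-numbered Del52 and wild-type arrays had deviations correlated at -0.60, -0.92 and -0.87, so the numbers were not treated as pairs. Between Del52 and Ins5 these correlations were -0.56, 0.64 and 0.57. By their values, wild-type replicate 2 correlated best with replicate 3 of Ins5 and Del52 (0.997 and 0.996). Wild-type replicate 3 correlated best with replicate 2 of Del52 and Ins5 (0.997 each). The source of this likeness was not tested. Alternatives covered normalization, centring, filters, probe set choice, variance prior, array weights, covariates, a replicate block and each array left out. Figures were drawn with matplotlib 3.10.9.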

Additional observations from a re-analysis of the deposited data

Results flagged for a closer look

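The bacterial spike-in bioB, a control added to the labelled material and used in no comparison above, separated the groups. It read 6.19, 6.20 and 6.11 in the Del52 arrays and 5.94, 5.95 and 6.06 in the wild-type arrays, a difference of 0.187. The Ins5 arrays read 6.11, 6.10 and 6.08. Of 12 classes of control probe sets it was the only one whose Del52 and wild-type arrays did not overlap. Its part in the gene values was not tested.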

How the results depend on the processing

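The count of genes past the threshold, 0 with all arrays, was 3190 with array weights and 4 with the first principal component as covariate, and 0 in the other alternatives run. The array weights did not converge (66.97 for wild-type replicate 1 against 0.237 and 0.285 for replicates 2 and 3), so the calls of that fit were not used. Genes at an unadjusted p under 0.05, 1285 with all arrays (7.05%), numbered 852 with the 6 Del52 and wild-type arrays only, 6274 with array weights and 3516 with the covariate. Of the 45253 probe sets each on its own there were 3107. When only the 9119 genes above the median level were fitted, there were 386 (4.23%). The number was 909 to 1673 with 1 array left out. It was 891 without wild-type replicates 2 and 3 together, an alternative chosen after seeing the data. With the replicate block, 0 genes passed and 386 were at an unadjusted p under 0.05. Del52 against Ins5 gave 0 genes in every alternative run.

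With 1 array left out, medians ran from 0.028 to 0.124 for ER chaperones, -0.119 to -0.058 for ER-Golgi transport and 0.005 to 0.080 for the NRF2 pathway. Of 130 named genes, 113 kept their sign in all 16 settings, and 10 of 28 list medians did. Outside the fixed list, the named genes were picked by p-value or separate groups in these same arrays, which favours a kept sign. The count of named genes therefore does not measure how stable the signs of genes are in general. With array weights, CALR was 0.178, CAT 0.007, STAT5B -0.063 and TXNRD1 0.058. With the mean of all probe sets, CALR was 0.180, CAT 0.048, ITGA2B 0.022, NDUFA13 0.019 and TXNRD1 0.038. With quantile normalization, CAT was 0.021, TXNRD1 0.013 and XBP1 0.012. With the covariate, ITGA2B was 0.041 and XBP1 0.027. Without wild-type replicates 2 and 3 together, CALR was 0.125, STAT5A -0.004, STAT5B -0.021 and TXNRD1 0.039. With 1 array left out, the ranges were -0.075 to 0.481 for ALAS2, -0.039 to 0.234 for ATF6, -0.007 to 0.077 for CANX, -0.126 to 0.120 for CAT, -0.017 to 0.268 for GATA1, -0.032 to 0.191 for GCLM, -0.051 to 0.092 for HBG1, -0.443 to 0.359 for ITGA2B, -0.196 to 0.071 for JAK2, -0.218 to 0.347 for NQO1, -0.164 to 0.210 for SOD1, -0.159 to 0.368 for STAT5A, -0.146 to 0.158 for STAT5B, -0.067 to 0.073 for TXNRD1 and -0.294 to 0.267 for XBP1. The cause of these reversals was not tested.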
